A study of Mus musculus with 40 samples.

Results

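The genes described here encode the cytosolic factors that start and extend protein synthesis. They were chosen by name alone, as every gene of the RNA table whose symbol begins with Eif or Eef followed by a digit and is not marked as a pseudogene. The rule gave 64 of 39179 genes, and no measured value entered it. Of the 64 genes, 60 reached a normalised read count of at least 10 in at least 2 libraries and were tested. The other 4 (Eef1a2, Eif2c5, Eif4e1b and Eif4ebp3) were at or near 0 in every library. Eif2c5 carries an older symbol of the Argonaute family and is no initiation factor.

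The series measured RNA and chromatin in mouse CD4 T cells taken from spleen, a tissue from which these helper cells can be isolated before they have met antigen. The animals of the RNA libraries were on the C57BL/6 background, either Setdb1-/- (called Setdb1 KO here) or Setdb1+/+ (WT). Setdb1 encodes a methyltransferase that places the repressive mark H3K9me3. RNA was sequenced from 3 naive Setdb1 KO and 4 naive WT libraries, 3 Th2 Setdb1 KO and 3 Th2 WT libraries, and 3 Th2-Th1 Setdb1 KO and 2 Th2-Th1 WT libraries. Among the peak lists, 1 of H3K9me3 came from Th2 cells of animals labelled Suv39h1-/-, whose background the labels do not give. Naive cells were not cultured. Th2 cells had spent 6 days with antibodies to CD3 and CD28, IL-4 at 50 ng/mL and an antibody to interferon gamma, with IL-2 added later. Th2-Th1 cells were Th2 cells then kept for 2 days in Th1 medium with IL-12 at 10 ng/mL and an antibody to IL-4. The sources used here do not say how the deletion was made or in which cells. The labels do not say that libraries came from separate animals or cultures, so p-values measure the spread between these libraries, which may be technical. The RNA is from bulk cells, so fewer cells of a type and less RNA per cell cannot be told apart.

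Translation begins when eIF2 brings the initiator tRNA to the small ribosomal subunit, which eIF3, eIF1 and eIF1A hold open for scanning. The cap-binding protein eIF4E, the scaffold eIF4G and the helicase eIF4A recruit the mRNA, and eIF5 and eIF5B complete the joining of the large subunit. eIF2B recharges eIF2 with GTP, and kinases that phosphorylate the alpha subunit of eIF2 block this step under stress. During elongation eEF1A delivers aminoacyl-tRNAs, the eEF1B subunits recharge it, and eEF2 moves the ribosome along. Naive T cells are small and make little protein, and activation through the T cell receptor raises protein synthesis. Many mRNAs of elongation factors and of some initiation factors begin with a 5' terminal oligopyrimidine tract, through which the mTORC1 pathway controls their translation together with that of ribosomal proteins.

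Libraries held 12.8 to 15.3 M reads in naive Setdb1 KO cells and 10.0 to 18.5 M reads in naive WT cells. They held 36.3 to 44.7 M reads in Th2 Setdb1 KO cells and 10.1 to 13.3 M reads in Th2 WT cells, and 37.2 to 37.6 M reads in Th2-Th1 Setdb1 KO cells and 18.9 and 19.8 M reads in Th2-Th1 WT cells. At an equal depth of 10.0 M reads, naive Setdb1 KO 2 and naive WT 1 and 3 stood apart with 21277 to 25556 genes detected, against 15128 to 18640 in the other 4 naive libraries. The T cell markers Cd3e, Cd4 and Lck were present in all groups. Setdb1 itself was at 933 to 1103 normalised reads in naive cells labelled Setdb1 KO and 1214 to 1366 in naive WT cells, a log2 difference of -0.38 ± 0.11 (SE; limma adjusted p = 0.032). In cultured cells its level went against the label. It was at 8070 to 9044 normalised reads in Th2 cells labelled Setdb1 KO and 694 to 933 in Th2 WT cells, and at 5430 to 7389 in Th2-Th1 cells labelled Setdb1 KO and 1594 and 1611 in Th2-Th1 WT cells. A gene count also takes in reads from outside a deleted part, so this does not check the deletion. The libraries are therefore called "labelled Setdb1 KO", and every direction between genotypes below rests on that label.

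The summed share of reads of the factor genes was larger in Th2 WT cells than in any other group. Together the 64 genes held 1.92 to 2.04% of reads in naive cells labelled Setdb1 KO and 2.04 to 2.33% in naive WT cells. They held 2.19 to 2.22% in Th2 cells labelled Setdb1 KO and 3.67 to 3.73% in Th2 WT cells. After the move to Th1 medium the shares were 2.29 to 2.36% in cells labelled Setdb1 KO and 2.23% in both WT libraries. Most of the share in Th2 WT cells came from Eef1a1 and Eef2, with medians of 1.33% and 0.888% there. No library of another group exceeded 0.607% for Eef1a1 or 0.493% for Eef2. The share of the remaining factor genes was not summed, so the total cannot be read as a trait of the whole set. The summed share of 91 ribosomal protein genes was likewise highest in Th2 WT cells. It was 2.26 to 2.38% in Th2 cells labelled Setdb1 KO and 6.35 to 7.16% in Th2 WT cells. In naive cells it was 2.49 to 2.61% in those labelled Setdb1 KO and 3.02 to 4.14% in WT. After the move to Th1 medium the 2 shares parted. The ribosomal share was 2.11 to 2.30% in cells labelled Setdb1 KO and 2.96 and 3.13% in WT cells. The share of the factor genes was there slightly higher in cells labelled Setdb1 KO.

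**Figure D1:**
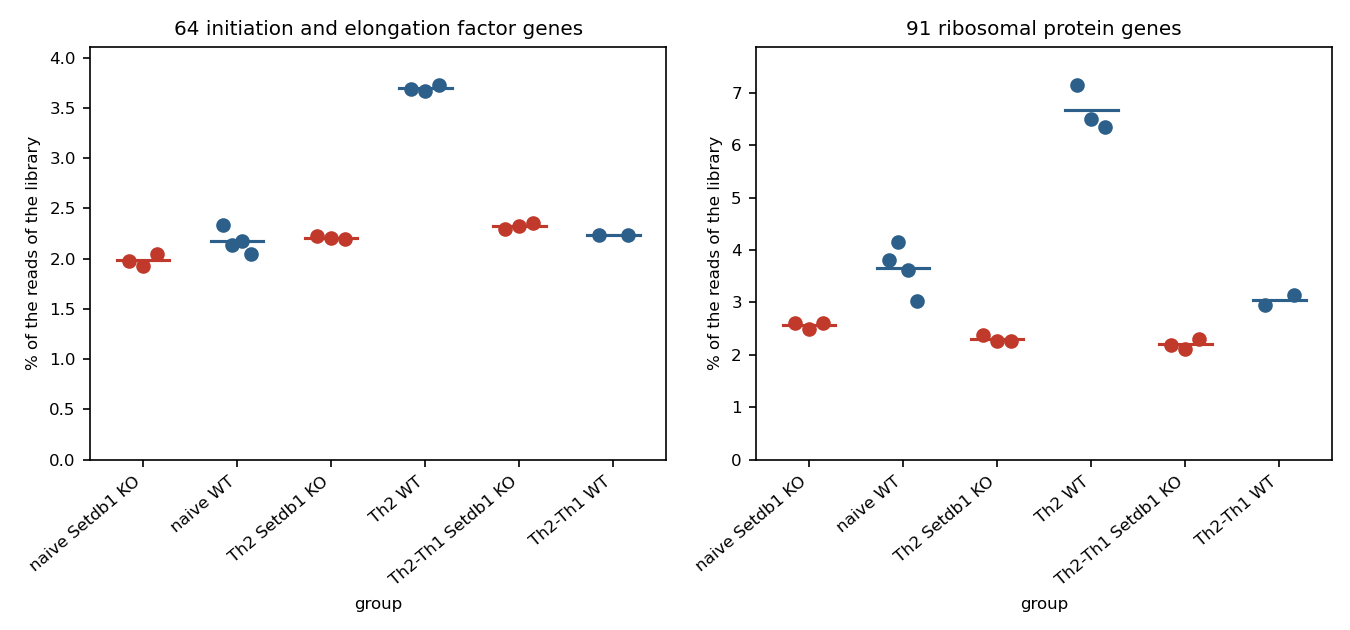
Share of each library's reads, in percent, taken by the factor genes and by 91 ribosomal protein genes, with groups on the horizontal axis and a point for each of the 18 libraries. The 3 Th2 WT libraries lie above all others in both panels, at 3.67 to 3.73% for the factor genes, against 1.92 to 2.36% elsewhere. Most of the factor gene share in Th2 WT is that of Eef1a1 and Eef2.

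Single genes showed the same standing of the Th2 WT libraries. For 19 of the 60 tested genes all 3 Th2 WT libraries lay above each of the other 15 libraries, and for 7 genes they lay below. These are 31.7% and 11.7% of the 60 genes, while over all 17254 genes tested the Th2 WT libraries lay above all others for 12.6% and below for 10.4%. The genes above in Th2 WT were Eef1a1, Eef1b2, Eef1d, Eef1g, Eef2 and its kinase Eef2k, the eIF3 genes Eif3e, Eif3f, Eif3h, Eif3i, Eif3k, Eif3l and Eif3m, and Eif1b, Eif2a, Eif2s2, Eif2s3y, Eif4ebp1 and Eif4h. The genes below were all 3 Eif4g genes, Eif2ak1, Eif3b, Eif5a2 and Eif5b. Ordered by group mean, the highest level fell in Th2 WT for 23 of the 60 genes, in Th2-Th1 WT for 17, in Th2-Th1 labelled Setdb1 KO for 10, and in the other 3 groups for 3 or 4 each. This ordering was not made over all genes tested, so these counts cannot be read as a trait of the factor genes. Both Th2-Th1 WT libraries lay above all others for 16.7% of the 60 genes and 9.59% of all genes tested. The log2 ratio of highest to lowest group mean had a median of 1.48. It reached 6.67 for Eif4ebp1, 3.03 for Eif2ak2, 2.82 for Eif3j2, 2.26 for Eif2a and 2.17 for Eif3f.

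**Figure D2:**
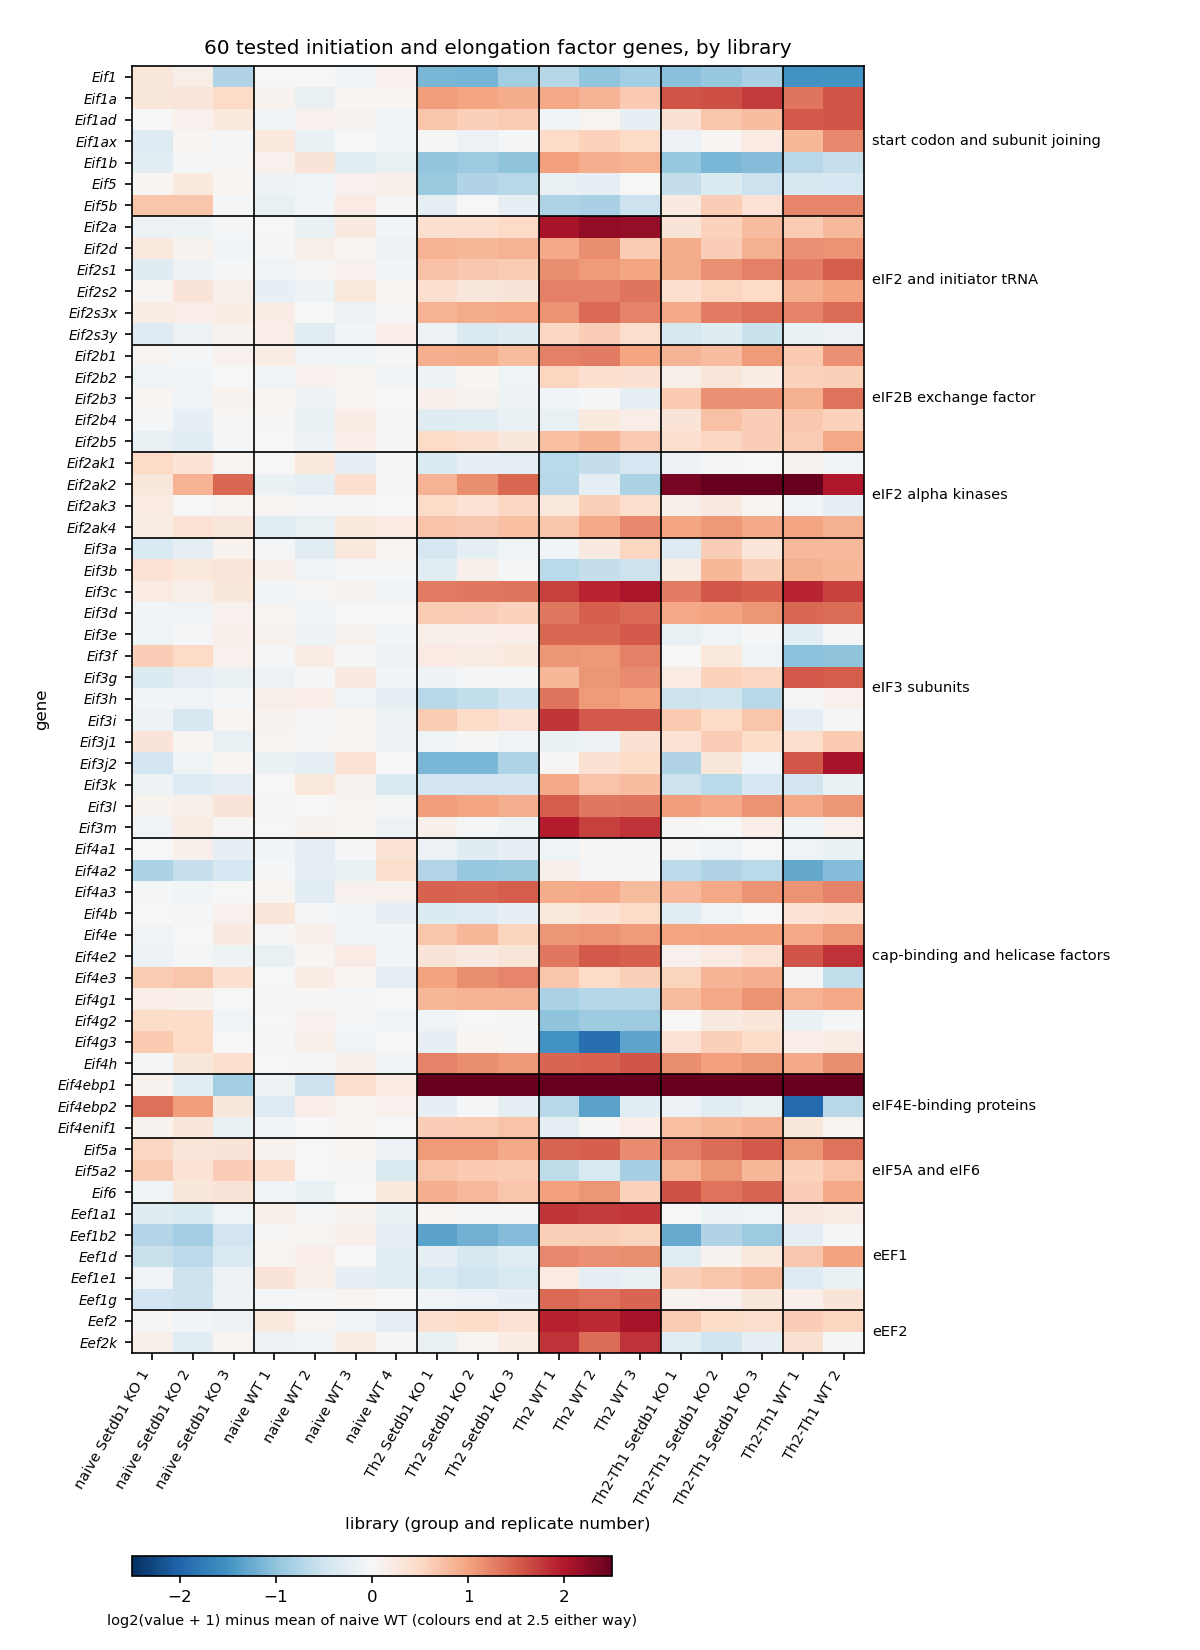
Level of the 60 tested genes (rows, grouped by role) in the 18 libraries (columns), as log2(normalised read count + 1) minus the mean of the naive WT libraries. In the 3 Th2 WT libraries most rows of the eEF1, eEF2, eIF3 and eIF2 groups are raised while Eif4g1, Eif4g2 and Eif4g3 are lowered.

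The comparison of genotypes after Th2 culture asks whether cells labelled Setdb1 KO carry another set of translation factor mRNAs than WT cells. Elongation factors, most eIF3 subunits and the translation repressor Eif4ebp1 were lower in the cells labelled Setdb1 KO, and the eIF4G scaffolds and the kinase Eif2ak2 were higher. Of the 60 genes tested, 35 fell and 11 rose at an adjusted p under 0.05 in limma, while over all 17254 genes tested 24.7% fell and 29.3% rose (54% called in either direction). Of the 60 genes, 17 were called and at least 2-fold lower (28.3%) and 4 at least 2-fold higher (6.67%), while over all genes tested 15.9% were at least 2-fold lower and 17.7% higher. The median log2 difference was -0.40 over the 60 genes and 0.13 over all genes tested. Rescaling the libraries by TMM moved the median of all genes to 0.24 and left 30 of the 60 genes lower and 13 higher. Over all 17370 genes of that fit, 3764 were called lower and 5800 higher.

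**Figure D3:**
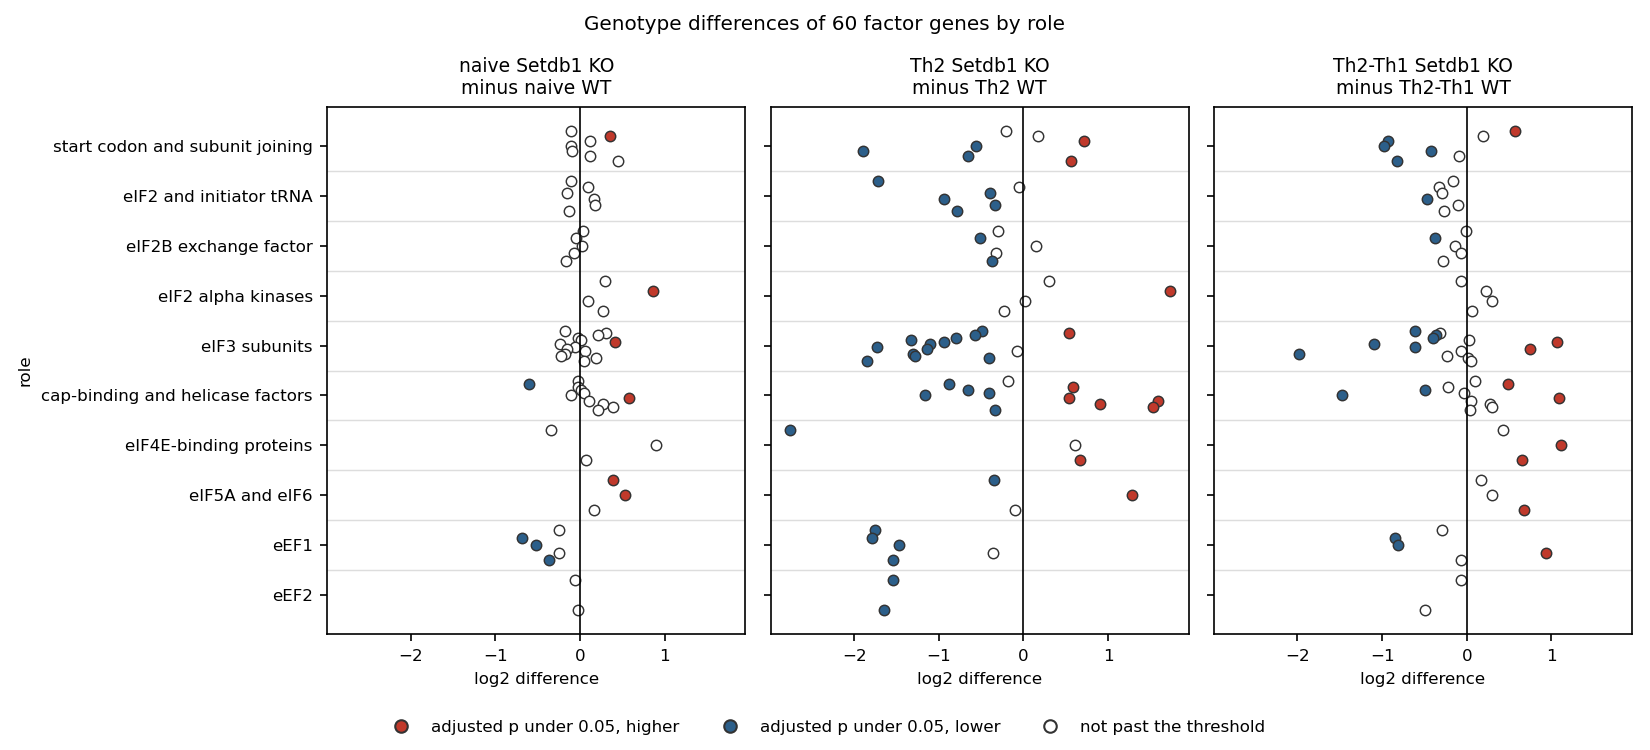
Log2 difference of each of the 60 tested genes (points) between cells labelled Setdb1 KO and WT cells, with roles down the page and 1 panel each for naive, Th2 and Th2-Th1 cells; filled points passed the test. In Th2 cells the eEF1, eEF2, eIF3 and eIF2 rows lie mainly below 0, with group medians of -1.54, -1.59, -1.02 and -0.59.

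Elongation factor genes fell, with 4 of 5 tested eEF1 genes lower and none higher, and Eef2 and its kinase gene Eef2k also lower. Eef1a1, which encodes the eEF1A isoform that carries aminoacyl-tRNAs to the ribosome, had 101928, 93433 and 99477 normalised reads in Th2 cells labelled Setdb1 KO, against 332876, 327722 and 329916 in Th2 WT cells. The lowest WT library was more than 3-fold above the highest library labelled Setdb1 KO, and the log2 difference was -1.75 ± 0.11 (limma adjusted p = 1.8e-10). The translocase Eef2 had 76316, 80799 and 74873 normalised reads in Th2 cells labelled Setdb1 KO, against 220783, 210251 and 243172 in Th2 WT cells. The groups did not overlap, and the log2 difference was -1.54 ± 0.12 (limma adjusted p = 2.9e-09). Eef1b2, a subunit of the exchange complex that recharges eEF1A, had 18222, 20158 and 21604 normalised reads in Th2 cells labelled Setdb1 KO, against 70024, 69610 and 67914 in Th2 WT cells. Here too every library labelled Setdb1 KO was lower, by 1.79 ± 0.13 on the log2 scale (limma adjusted p = 1.1e-09). The other exchange subunits Eef1d and Eef1g fell by 1.47 and 1.54. Eef2k, the kinase that inhibits eEF2, fell by 1.65 ± 0.18 (limma adjusted p = 3.1e-07). Eef1e1, which despite its name is a scaffold of the aminoacyl-tRNA synthetase complex, had a log2 difference of -0.36 and did not pass (limma adjusted p = 0.060).

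Among the 14 subunit genes of eIF3, the complex that holds the small subunit ready for mRNA, 12 fell, 1 rose and 1 did not pass. Eif3m had 1670, 1507 and 1410 normalised reads in Th2 cells labelled Setdb1 KO, against 6027, 5068 and 5421 in Th2 WT cells. The WT libraries lay above all 15 others, which ranged from 1392 to 1740, and the log2 difference was -1.85 ± 0.10 (limma adjusted p = 2.7e-11). Eif3h fell by 1.73, Eif3e by 1.33, Eif3k by 1.29 and Eif3i by 1.14. The core subunits Eif3a, Eif3b and Eif3c did not move as one. Eif3c fell by 0.57 and Eif3a by 0.49 ± 0.20 (limma adjusted p = 0.042), while Eif3b rose by 0.54 ± 0.13 (limma adjusted p = 0.0013). The call for Eif3a was lost under TMM rescaling, under edgeR and under 5 other alternatives. Eif3j1, one of a pair of near-identical genes for the loosely bound subunit eIF3j, had a log2 difference of -0.08 (limma adjusted p = 0.72), while its copy Eif3j2 fell by 1.31. The sources used here do not say how reads were shared between such copies, so the values of the pair are uncertain.

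Genes that supply the initiator tRNA also fell. Of the 6 genes of eIF2 and initiator tRNA binding, 5 fell and Eif2d did not pass. The largest difference was that of Eif2a, which encodes a separate protein able to bind initiator tRNA and not a subunit of eIF2. It had 1610, 1635 and 1716 normalised reads in Th2 cells labelled Setdb1 KO, against 5067, 5684 and 5596 in Th2 WT cells, a log2 difference of -1.72 ± 0.11 (limma adjusted p = 3.0e-10). Among the eIF2 subunits, the beta subunit Eif2s2 fell by 0.94 and the alpha subunit Eif2s1 by 0.40. The gamma subunit genes Eif2s3y and Eif2s3x, which are near-identical, fell by 0.78 and 0.34. Of the 5 genes of the exchange factor eIF2B, Eif2b2 and Eif2b5 fell, by 0.51 and 0.37, and the other 3, the catalytic subcomplex gene Eif2b3 among them, did not pass.

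Of the 4 eIF2 alpha kinases, only Eif2ak2 passed the test. It encodes PKR, which is activated by double-stranded RNA and induced by interferon. Eif2ak2 had 1548, 1915 and 2323 normalised reads in Th2 cells labelled Setdb1 KO, against 526, 731 and 491 in Th2 WT cells. The lowest library labelled Setdb1 KO was about 2-fold above the highest WT library, and the log2 difference was 1.73 ± 0.23 (limma adjusted p = 3.9e-06). The log2 differences of the others were 0.31 for the haem-regulated Eif2ak1 (limma adjusted p = 0.051), 0.02 for the endoplasmic reticulum kinase Eif2ak3 and -0.23 for the amino acid sensor Eif2ak4.

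The cap complex was split, with 5 genes higher and 5 lower of 11 tested. All 3 eIF4G genes rose. Eif4g1, the main scaffold between cap and ribosome, had 14647, 15048 and 14856 normalised reads in Th2 cells labelled Setdb1 KO, against 4795, 5029 and 5034 in Th2 WT cells. The 2 groups were about 3-fold apart with little spread within either, and the log2 difference was 1.58 ± 0.09 (limma adjusted p = 1.8e-11). Its relative Eif4g3 had 2387, 2818 and 2799 normalised reads in Th2 cells labelled Setdb1 KO, against 960, 735 and 1095 in Th2 WT cells, a log2 difference of 1.53 ± 0.15 (limma adjusted p = 5.3e-08). Eif4g2, which lacks the eIF4E-binding site, rose by 0.91. Eif4a3, the helicase of the exon junction complex, rose by 0.59, and the cap-binding Eif4e3 by 0.54. The cap-binding protein gene Eif4e fell by 0.41, its homologue Eif4e2, which competes for the cap, by 1.16, the helicase Eif4a2 by 0.88, and the helicase cofactors Eif4b and Eif4h by 0.65 and 0.33. The call for Eif4h was lost under TMM rescaling and under edgeR. Eif4a1 did not pass (log2 difference -0.18, limma adjusted p = 0.23). Most reads of that gene family were listed under the processed pseudogene Eif4a-ps4, at 14467 to 15269 in Th2 cells labelled Setdb1 KO and 22643 to 23302 in Th2 WT cells, while Eif4a1 itself lay between 1913 and 3006 in all libraries. The level of Eif4a1 can therefore not be told from these values.

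Eif4ebp1, which encodes the mTORC1 target 4E-BP1 that keeps eIF4E from eIF4G, had the largest difference of all tested members. It had 774, 890 and 831 normalised reads in Th2 cells labelled Setdb1 KO, against 5857, 5324 and 5753 in Th2 WT cells, a log2 difference of -2.76 ± 0.21 (limma adjusted p = 2.1e-09). Both groups lay far above naive cells, where the gene had 36.7 to 90.5 normalised reads over 7 libraries. Eif4ebp2 had a log2 difference of 0.60 and did not pass (limma adjusted p = 0.11). Eif4enif1, whose product binds eIF4E and represses its mRNAs, rose by 0.66.

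Of the 7 genes for start codon choice and subunit joining, 2 rose and 3 fell. Eif1b, a close copy of Eif1, had 596, 630 and 591 normalised reads in Th2 cells labelled Setdb1 KO, against 2416, 2216 and 2145 in Th2 WT cells. The log2 difference was -1.90 ± 0.13 (limma adjusted p = 4.8e-10), while Eif1, the factor that guards the start codon, had -0.21 and did not pass (limma adjusted p = 0.35). Eif5, which makes eIF2 release the initiator tRNA, fell by 0.65 and Eif1ax by 0.57. Eif1ad, a gene related in sequence to the eIF1A genes, rose by 0.71 and the GTPase gene Eif5b by 0.56. Of the last 3 genes, Eif5a2 rose by 1.28 ± 0.18 (limma adjusted p = 5.2e-06), whereas its relative Eif5a, which helps ribosomes past difficult peptide bonds, fell by 0.35. Eif6, which keeps the large subunit from joining early, did not pass. The call for Eif5a was lost under 3 alternatives.

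**Figure D4:**
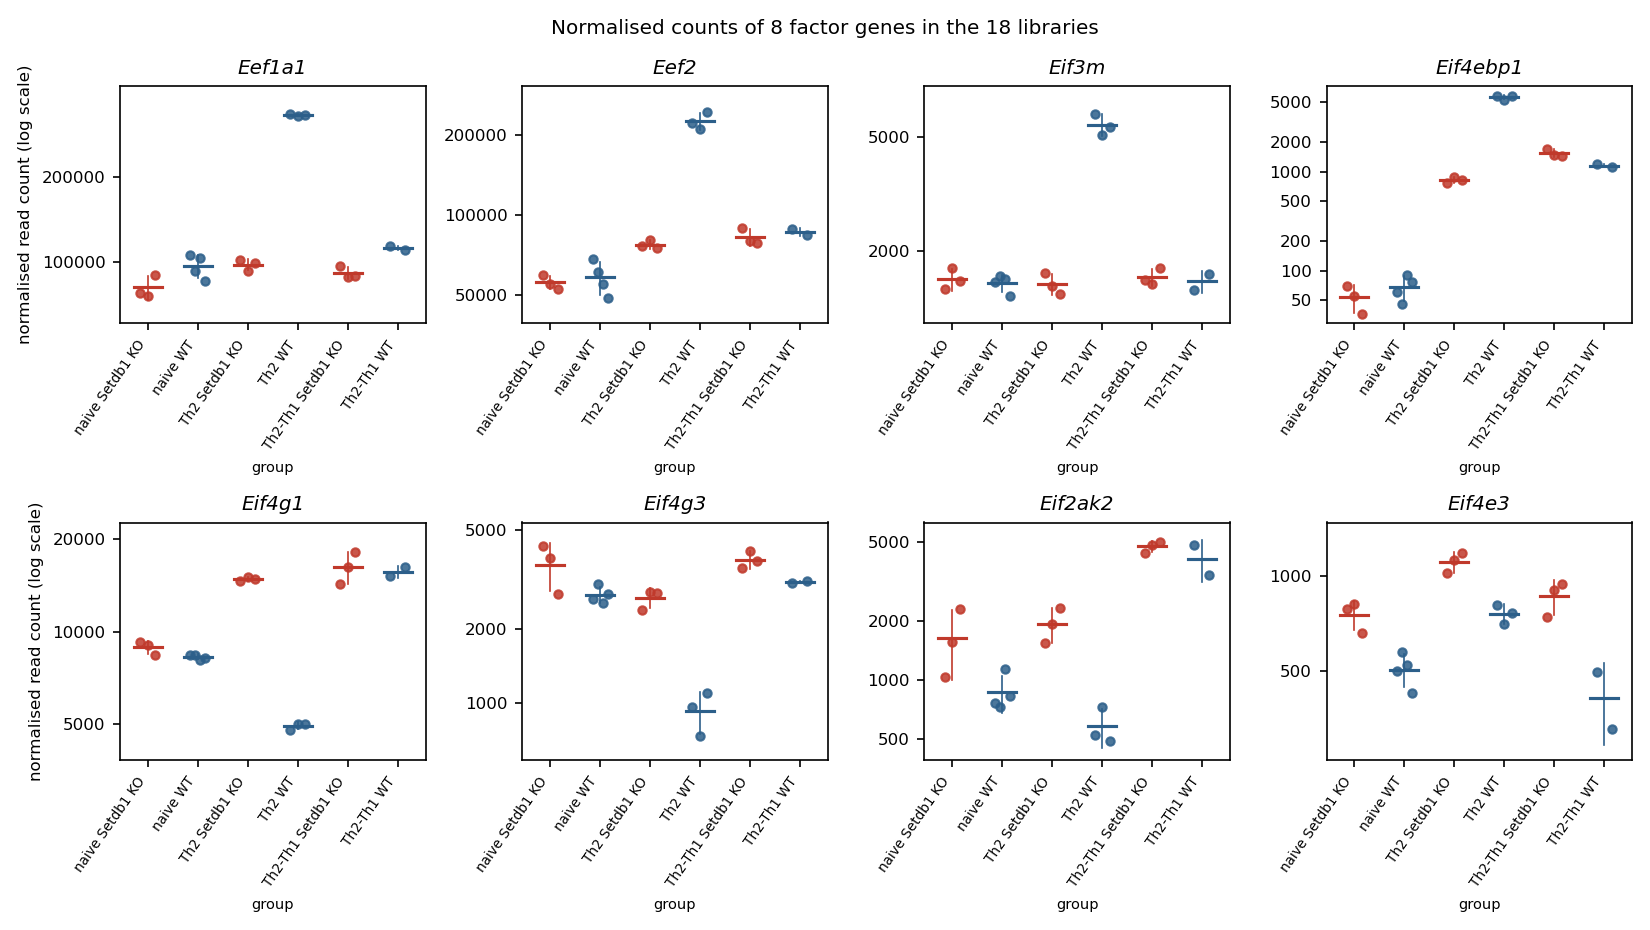
Normalised read counts of 8 factor genes in the 18 libraries on a log axis, 1 point per library, by group. Eef1a1 and Eef2 are highest in the 3 Th2 WT libraries, at 327722 to 332876 and 210251 to 243172, and Eif4g1 is lowest there, at 4795 to 5034.

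Beside these differences, other properties of the Th2 libraries moved with genotype, and their part in the results was not tested. Depth was 36.3 to 44.7 M reads in Th2 libraries labelled Setdb1 KO and 10.1 to 13.3 M reads in Th2 WT libraries. The sum of 9 myeloid markers was 4673 to 5462 in cells labelled Setdb1 KO and 1253 to 1622 in WT cells. Nearly all of it was Emr1, a macrophage marker that eosinophils also carry, with 4659 to 5438 in cells labelled Setdb1 KO and 1243 to 1602 in WT cells, and 8 of the 9 markers were under 10 in every Th2 library labelled Setdb1 KO. Haemoglobin alpha, Hba-a1, was at 379 to 415 in Th2 cells labelled Setdb1 KO and 17.5 to 22.2 in Th2 WT cells, with 5 of 6 erythroid and platelet markers under 10 in all Th2 libraries labelled Setdb1 KO and 4 of 6 in all Th2 WT libraries. The summed level of 11 T cell markers was 57982 to 65185 in Th2 cells labelled Setdb1 KO and 93920 to 101093 in Th2 WT cells.

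Promoter stretches of genes with large Th2 differences in either direction are shown because the terminal pyrimidine tract of an mRNA is read from the bases at the start of its gene. RefSeq starts on GRCm38.p6, the build the deposited peak files also use (mm10), were at hand for 50 of the 64 genes. Each stretch runs from 40 bases before the annotated start to 20 bases from it, on the strand of the gene. Capitals mark the longest unbroken run of C and T within 20 bases to either side of the start. A run that reaches the edge of this window may go on beyond it. Eef1a1, Eef2, Eef1b2 and Eif3m fell and Eif4g1, Eif4g3 and Eif2ak2 rose in Th2 cells labelled Setdb1 KO. The coordinates are chr9:78481705-78481764 on the minus strand for Eef1a1, chr10:81176591-81176650 on the plus strand for Eef2, chr1:63176791-63176850 on the plus strand for Eef1b2 and chr2:105017008-105017067 on the minus strand for Eif3m. They are chr16:20672687-20672746 on the plus strand for Eif4g1, chr4:137993415-137993474 on the plus strand for Eif4g3 and chr17:78882553-78882612 on the minus strand for Eif2ak2.
Eef1a1: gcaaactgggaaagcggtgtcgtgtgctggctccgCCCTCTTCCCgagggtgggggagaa
Eef2: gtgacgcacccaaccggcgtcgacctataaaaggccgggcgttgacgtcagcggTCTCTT
Eef1b2: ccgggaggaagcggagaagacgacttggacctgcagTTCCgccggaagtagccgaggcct
Eif3m: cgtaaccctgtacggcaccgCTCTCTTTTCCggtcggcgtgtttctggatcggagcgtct
Eif4g1: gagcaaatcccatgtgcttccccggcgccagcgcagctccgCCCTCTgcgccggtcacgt
Eif4g3: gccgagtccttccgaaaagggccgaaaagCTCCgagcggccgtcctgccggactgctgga
Eif2ak2: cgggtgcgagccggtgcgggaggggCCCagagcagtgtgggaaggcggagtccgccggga

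The run spanned the annotated start in Eef1a1, with 10 bases, and was 11 bases long upstream of it in Eif3m. It was 6 bases long in Eif4g1, 4 bases in Eef1b2 and Eif4g3, and 3 bases in Eif2ak2. In Eef2 it began 14 bases after the annotated start and held 6 bases up to the window edge, so its full length was not seen. Over the 50 genes, 13 (26%) held a run of at least 8 pyrimidines in this window, against 19.4% of the 10840 tested genes with a start. Motifs were searched on both strands from 250 bases before to 50 bases after the start. The E-box CACGTG lay in 12 of the 50 genes (24%), against 11.1% of the tested genes, and Eef2 and Eif4g1 held it. The ETS motif CCGGAAG lay in 17 genes (34%), against 18.6%, and Eef1b2 and Eif3m held it. The NRF1 motif, GCGCA joined to its reverse complement, lay in 1 gene (2%, against 2.2%) and the ATF4-CEBP motif TGATGNAA in 2 genes (4%, against 2.9%). These are matches of letters in a window and were not tested.

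The culture comparison within WT cells asks which factor mRNAs change when naive cells become Th2 cells. Of the 60 genes, 39 rose and 10 fell at an adjusted p under 0.05 in limma, while over all genes tested 32.8% rose and 33.1% fell (65.9% called). The median log2 difference was 0.82 over the 60 genes and -0.14 over all genes tested, and 24 genes rose at least 2-fold (40%, against 23.9% of all genes tested). All 6 eIF2 and initiator tRNA genes rose, as did 10 of 14 eIF3 genes, 4 of 5 eEF1 genes, Eef2 and its kinase gene Eef2k. Eif4ebp1 rose most, by 6.38 ± 0.20 on the log2 scale (limma adjusted p = 1.1e-15), with 5324 to 5857 normalised reads in Th2 WT cells and 46.6 to 90.5 in naive WT cells. Eif2a followed at 2.16, Eef2 at 1.95, Eif3c at 1.89, Eif3m at 1.83 and Eef1a1 at 1.77. The 3 eIF4G genes fell, Eif4g3 by 1.57 ± 0.14 (limma adjusted p = 6.0e-09), Eif4g2 by 0.94 and Eif4g1 by 0.74. Eif1 and Eif5b also fell, by 0.85 and 0.71. Beside these changes, Emr1 was at 1243 to 1602 in Th2 WT cells and 0 to 12.7 in naive WT cells, the summed level of 2 CD8 T cell markers at 103 to 202 in Th2 WT cells and 442 to 565 in naive WT cells, and that of the 11 T cell markers at 93920 to 101093 in Th2 WT cells and 120763 to 129189 in naive WT cells. Their part in the results was not tested.

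In cells labelled Setdb1 KO the same culture was followed by 25 higher and 13 lower genes of 60, while 28.3% of all genes tested rose and 25.2% fell (53.5% called). The median was 0.18 over the 60 genes and -0.03 over all genes tested. TMM rescaling gave 29 genes higher and 9 lower, while over all 17370 genes of that fit 5282 were called higher and 3957 lower. Eif4ebp1 again rose most, by 3.96 ± 0.21 (limma adjusted p = 9.3e-12), with 774 to 890 normalised reads in Th2 cells and 36.7 to 70.6 in naive cells labelled Setdb1 KO. Eif4a3 rose by 1.51, Eif3c by 1.11, Eif4h by 0.95 and Eif4g1 by 0.74. Eef1a1 had a log2 difference of 0.27 and did not pass (limma adjusted p = 0.051). Eef2 rose by 0.47, and Eef1b2, Eif3h and Eif1b fell by 0.52, 0.55 and 0.87. Emr1 was at 4659 to 5438 in Th2 cells and 5.55 to 12.6 in naive cells labelled Setdb1 KO, and its part in the results was not tested.

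The difference between the 2 responses was tested directly as an interaction of genotype and Th2 culture. The change with culture was lower in cells labelled Setdb1 KO for 31 of the 60 genes and higher for 8, while over all genes tested 20.6% were lower and 20.7% higher (41.3% called). The median interaction was -0.46 over the 60 genes and 0.10 over all genes tested. None of the 14 eIF3 genes was called with a higher change in cells labelled Setdb1 KO, and 11 were called with a lower one. Eif3b had a positive interaction of 0.24 that did not pass (limma adjusted p = 0.30). Eef1a1 had an interaction of -1.50 ± 0.15 (limma adjusted p = 3.1e-07), Eef2 of -1.48 ± 0.17 (limma adjusted p = 9.0e-07) and Eif3f of -1.35. The eIF4G genes, Eif4a3, Eif4enif1, Eif1ad, Eif5a2 and Eif2ak2 made up the 8 with a higher change. The call for Eif2ak2 was lost in 10 alternatives and that for Eif5a2 in 3.

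The move to Th1 medium was examined within each genotype. Against Th2 WT cells, 19 of the 60 genes rose and 22 fell in Th2-Th1 WT cells, while 25.8% of all genes tested rose and 24% fell (49.8% called). The median was -0.09 over the 60 genes and 0 over all genes tested. Eef1a1 had 113801 and 110951 normalised reads in Th2-Th1 WT cells, against 327722 to 332876 in Th2 WT cells, a log2 difference of -1.55 ± 0.13 (limma adjusted p = 6.0e-09). Eef2 fell by 1.38, and the log2 differences of Eif3m, Eif3e and Eif4ebp1 were -1.82, -1.61 and -2.29. Eif4g1 rose by 1.66 and Eif4g3 by 1.75. These comparisons and the earlier ones share the 3 Th2 WT libraries, so the opposite signs are not separate evidence. Emr1 was at 33.7 to 39.0 in Th2-Th1 WT cells and 1243 to 1602 in Th2 WT cells, and its part in the results was not tested.

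The largest rises of WT cells in Th1 medium were those of Eif2ak2 and Eif5b. Eif2ak2 had 4833 and 3431 normalised reads in Th2-Th1 WT cells, against 491 to 731 in Th2 WT cells, a rise of 2.82 ± 0.26 (limma adjusted p = 3.6e-08). Eif5b rose by 1.93, to 3428 and 3427 in Th2-Th1 WT cells, above all 16 other libraries. Eif3f, a subunit of eIF3, fell by 2.17 ± 0.14 (limma adjusted p = 2.1e-10). It had 1304 and 1313 normalised reads in Th2-Th1 WT cells, against 5583 to 6356 in Th2 WT cells, and no other library was below 2431. Eif1ad rose by 1.62 and Eif3b by 1.46.

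In cells labelled Setdb1 KO on the move to Th1 medium, 19 of the 60 genes rose and 3 fell, while 13% of all genes tested rose and 13.6% fell (26.7% called), with medians of 0.17 and 0. Eif2ak2 rose by 1.32 ± 0.23 (limma adjusted p = 0.00025), with 4412, 4840 and 5046 normalised reads in Th2-Th1 cells and 1548, 1915 and 2323 in Th2 cells labelled Setdb1 KO. Eef1e1 rose by 1.11, Eif2b3 by 0.95 and Eif4ebp1 by 0.90. Eif4a3, Eif2ak3 and Eif3e fell, by 0.52, 0.31 and 0.25. The call for Eif3e was lost on leaving out any 1 of the 6 libraries and with no filter on low values, and that for Eif2ak3 in 5 alternatives. Eef1a1, Eef2 and Eif4g1 had log2 differences of -0.10, 0.09 and 0.12 and did not pass. Emr1 was at 44.1 to 64.1 in Th2-Th1 cells and 4659 to 5438 in Th2 cells labelled Setdb1 KO, and Hba-a1 at 11.0 to 27.9 in Th2-Th1 cells and 379 to 415 in Th2 cells labelled Setdb1 KO. Their part in the results was not tested.

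The interaction of genotype and the move to Th1 medium was called for 34 of the 60 genes, 25 with a higher change in cells labelled Setdb1 KO and 9 with a lower one. Over all genes tested 17.3% were higher and 18.2% lower (35.5% called), and the medians were 0.30 over the 60 genes and -0.05 over all genes. All 5 tested eEF1 genes (the synthetase scaffold gene Eef1e1 included), Eef2 and its kinase gene Eef2k had a higher change. The interaction was 1.45 ± 0.17 for Eef1a1 (limma adjusted p = 1.9e-06) and 1.47 ± 0.18 for Eef2 (limma adjusted p = 4.1e-06). The largest positive values were those of Eif4ebp1 (3.19), Eif3f (2.00), Eif3m (1.90) and Eif3i (1.88). The most negative were those of Eif1ad (-1.65), Eif4g1 (-1.54), Eif2ak2 (-1.50), Eif5b (-1.39) and Eif4g3 (-1.24). Like the Th2 interaction, this test contains the Th2 WT libraries.

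In Th2-Th1 cells 9 of the 60 genes rose and 16 fell in cells labelled Setdb1 KO, while 17.6% of all genes tested rose and 16.1% fell (33.7% called). The median was -0.07 over the 60 genes, against 0.09 over all genes, and became 0.01 under TMM rescaling, which left 10 genes higher and 13 lower. Over all 17370 genes of that fit, 3519 were called higher and 2445 lower. Depth was 37.2 to 37.6 M reads in Th2-Th1 libraries labelled Setdb1 KO and 18.9 and 19.8 M reads in WT. The summed level of the T cell markers was 81770 to 96318 in those labelled Setdb1 KO and 132446 and 136637 in WT. The part of both in the results was not tested. Without Th2-Th1 WT 1, which leaves a single WT library, 5 genes were higher.

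Eif3j2 had the largest difference in Th2-Th1 cells, with 815, 1683 and 1317 normalised reads in cells labelled Setdb1 KO, against 4030 and 5727 in WT cells. The log2 difference was -1.98 ± 0.25 (limma adjusted p = 5.8e-06), with the limit on its copy given above. Eif4e2 had 2848, 3040 and 3362 normalised reads in Th2-Th1 cells labelled Setdb1 KO, against 7864 and 9228 in Th2-Th1 WT cells, and fell by 1.47 ± 0.12 (limma adjusted p = 2.1e-08). Eif3g, the subunit that binds RNA near the mRNA channel, fell by 1.09, Eif1ax by 0.98, Eif1ad by 0.94, Eef1b2 by 0.84 and Eif5b by 0.83. Eef1a1 had a log2 difference of -0.29 (limma adjusted p = 0.081) and Eef2 of -0.07 (limma adjusted p = 0.76), and neither passed.

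Among the genes higher in Th2-Th1 cells labelled Setdb1 KO, Eif4e3 had 739, 904 and 943 normalised reads in those cells, against 495 and 328 in Th2-Th1 WT cells. The log2 difference was 1.09 ± 0.17 (limma adjusted p = 6.1e-05), and Eif4e3 also rose in the other genotype comparisons. Eif3f had 2609, 3168 and 2484 normalised reads in Th2-Th1 cells labelled Setdb1 KO, against 1304 and 1313 in Th2-Th1 WT cells, a rise of 1.06 ± 0.14 (limma adjusted p = 7.1e-06). In Th2 cells the same gene had fallen by 0.94. Eif4ebp2 rose by 1.11, Eef1e1 by 0.93, Eif3i by 0.74 and Eif6 by 0.68. Without Th2-Th1 WT 1 the log2 difference was 0.48 for Eif4ebp2 (limma adjusted p = 0.41) and 0.49 for Eif6 (limma adjusted p = 0.099). Eif4g1, Eif4g3 and Eif2ak2 did not pass, with log2 differences of 0.04, 0.29 and 0.22.

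In naive cells 6 of the 60 genes rose and 4 fell in cells labelled Setdb1 KO, while 7.43% of all genes tested rose and 3.45% fell (10.9% called). The medians were 0.02 over the 60 genes and -0.005 over all genes tested. None of the 10 called genes differed 2-fold, while 3.01% of all genes tested were called and at least 2-fold higher and 0.875% lower. The genes that fell were the exchange subunits Eef1b2, Eef1d and Eef1g and the helicase Eif4a2. Eef1b2 had 27808, 25703 and 33038 normalised reads in naive cells labelled Setdb1 KO, against 47059, 48294, 50362 and 39353 in naive WT cells, a log2 difference of -0.68 ± 0.12 (limma adjusted p = 0.0011). Eif4a2 had 10282, 11950 and 13248 normalised reads in naive cells labelled Setdb1 KO, against 17321, 15216, 16036 and 24157 in naive WT cells, and fell by 0.60 ± 0.13 (limma adjusted p = 0.0043). In both genes every library labelled Setdb1 KO was below every WT library.

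The genes that rose in naive cells labelled Setdb1 KO were Eif2ak2 (0.86), Eif4e3 (0.58), Eif5a2 (0.53), Eif3f (0.41), Eif5a (0.39) and Eif1a (0.36). Eif2ak2 had 1039, 1561 and 2303 normalised reads in naive cells labelled Setdb1 KO, against 763, 730, 1139 and 832 in naive WT cells. The lowest library labelled Setdb1 KO lay below the highest WT library, and the log2 difference was 0.86 ± 0.22 (limma adjusted p = 0.014). Without naive Setdb1 KO 2 and naive WT 1 and 3, the libraries with the most genes detected, a choice made after seeing the data, 2 genes were higher and 1 lower. Over all 16040 genes of that fit, 762 were called higher and 203 lower. In that fit the limma adjusted p was 0.096 for Eef1b2, 0.21 for Eef1d, 0.28 for Eef1g, 0.056 for Eif2ak2, 0.29 for Eif3f and 0.14 for Eif4e3. Without naive Setdb1 KO 2 alone, 1 gene was higher and 2 were lower, while over all 16925 genes of that fit 757 were called higher and 320 lower. Of the 9 called genes among those named by rule, Eif4a2 was the only gene to pass in every alternative.

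Deposited peak lists were compared with the starts of the 50 genes that have one, counting a peak within 1000 bases to either side. Each list stands for 1 group and a mark, so no test was possible, and intervals are exact binomial at 95%. H3K27ac, a mark of active promoters, lay at 48 of 50 starts both in Th2 cells labelled Setdb1 KO and in Th2 WT cells (96%, interval 86.3 to 99.5%). Over the starts of all tested genes it lay at 77.3% in Th2 cells labelled Setdb1 KO and 78.6% in Th2 WT cells. The remaining starts, those of Eef1a2 and Eif2c5, belonged to genes at or near 0. Open chromatin by ATAC-seq lay at 47 of 50 starts in both, while over tested genes it lay at 84.5% in Th2 cells labelled Setdb1 KO and 88.4% in Th2 WT cells. H3K4me1 of the second experiment lay at 39 starts in Th2 cells labelled Setdb1 KO and 40 in Th2 WT cells, while over tested genes it lay at 80.1% in Th2 cells labelled Setdb1 KO and 77% in Th2 WT cells. H3K9me3, the product of SETDB1, lay at none of the starts in Th2 cells labelled Setdb1 KO or Th2 WT cells, which allows up to 7.11% by the same interval, while over tested genes it lay at 0.277% in Th2 cells labelled Setdb1 KO and 1.05% in Th2 WT cells. In naive cells it lay at none in cells labelled Setdb1 KO and at that of Eif5a2 in WT cells. Over tested genes it lay at 0.231% in naive cells labelled Setdb1 KO and 0.978% in naive WT cells. In Th2 cells lacking Suv39h1, another H3K9 methyltransferase, 7 of 50 starts held a H3K9me3 peak (14%, interval 5.82 to 26.7%), against 11.8% of tested genes. Lists differed in length, from 1163 to 97093 peaks, so counts from different lists are not a measure of change.

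Other genes of translation were taken from 7 lists fixed by name. In Th2 cells labelled Setdb1 KO against Th2 WT cells, 13 of 20 ribosome biogenesis genes rose and 3 fell, with log2 differences of 2.33 for Polr1b and 2.32 for Polr1a, subunits of RNA polymerase I, and -1.79 for Npm1, a nucleolar chaperone. Of 18 genes of the integrated stress response, the programme that eIF2 alpha kinases start, 5 rose and 9 fell. The median log2 difference of this list was -0.53. Lower genes included Ddit4 (-3.18), Ddit3 (-2.30), Trib3 (-1.24) and Atf4 (-0.93), and those that rose are not named here. Of 22 cytosolic aminoacyl-tRNA synthetase genes 4 rose and 8 fell, Sars by 1.74 and Vars by 0.45, while Wars rose by 1.18. Of 19 mTORC1 pathway genes 10 rose and 4 fell, with a median log2 difference of 0.39. Against this majority Rragd, a GTPase of amino acid sensing, had a log2 difference of -2.55. Of 12 termination and recycling genes 6 rose and 3 fell, of 19 genes for poly(A)-binding and regulatory proteins 10 rose and 5 fell, and of 9 mitochondrial translation factor genes 2 rose and 2 fell. These shares stand beside 29.3% higher and 24.7% lower over all genes tested.

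The same lists are given here between genotypes in naive and Th2-Th1 cells and for Th2 culture in each genotype. The shares over all genes tested were 7.43% higher and 3.45% lower between naive genotypes, 17.6% higher and 16.1% lower between Th2-Th1 genotypes, and 32.8% higher and 33.1% lower in Th2 WT against naive WT cells. In naive cells labelled Setdb1 KO the calls were 2 higher and 1 lower for synthetases, 3 and 0 for the mTORC1 pathway, 1 and 2 for the stress response, 4 and 1 for poly(A)-binding and regulatory proteins, with Pabpc1 higher by 1.01 and Larp1 by 0.87, and none for the other 3 lists. In Th2-Th1 cells labelled Setdb1 KO they were 6 and 3 for synthetases, 4 and 3 for the mTORC1 pathway, 7 and 1 for the stress response, 3 and 10 for poly(A)-binding and regulatory proteins, 5 and 6 for ribosome biogenesis, 2 and 4 for termination and 0 and 3 for mitochondrial factors. Fbl, the methyltransferase of ribosomal RNA, fell by 2.00 there and Ncl, nucleolin, by 1.09, while the median of the ribosome biogenesis list was -0.10. In Th2 WT cells against naive WT cells, 18 of 22 synthetases rose and none fell, with Vars higher by 2.70, and 14 of 18 stress response genes rose and 1 fell, with Trib3 higher by 4.69 and Atf4 by 2.24. There 7 ribosome biogenesis genes rose and 10 fell, 4 mTORC1 pathway genes rose and 10 fell, 5 termination genes rose and 4 fell, 6 regulatory genes rose and 8 fell, and 4 mitochondrial factors rose and 3 fell. In cells labelled Setdb1 KO the same culture gave 19 synthetases higher and 0 lower, and 15 stress response genes higher and 2 lower. Calls (higher and lower) were 14 and 1 for ribosome biogenesis, 3 and 9 for the mTORC1 pathway and 6 and 0 for termination. They were 3 and 8 for poly(A)-binding and regulatory proteins and 3 and 2 for mitochondrial factors. Over all genes tested 28.3% were higher and 25.2% lower with this culture.

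Pseudogene rows bear on some members, since reads of near-identical copies can be placed in either. Eif3s6-ps1, a copy of Eif3e, had 1109 to 1211 normalised reads in naive cells labelled Setdb1 KO and 1160 to 1541 in naive WT cells, but 26.6 to 234 in all cultured libraries. It made up at most 19.3% of the level of Eif3e in any library. Eif3e summed with it was 8251 to 8422 in Th2 cells labelled Setdb1 KO and 20659 to 22045 in Th2 WT cells, so the groups stayed apart. Eef1a1 is known for many pseudogene copies as well. Levels of Eif1a and Eif1ax, of Eif1 and Eif1b and of the pairs named above carry the same limit.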

How the data were processed

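RNA-seq was analysed for 18 of 40 samples, with 13 peak lists from ChIP-seq and ATAC-seq. The authors deposited RNA values as a signal, gene read counts divided by size factors. The submitters' processing notes name cutadapt 1.3, TopHat2 2.0.5, BWA 0.7.10, MACS2 2.1.0, DESeq and mm10, without giving the role of each, and the sources used here do not give the counting program, its strand setting or its treatment of shared reads. The deposited table held 2 identical copies, of which the first was used. Every value was a whole multiple of a per-library unit (100% within 0.01 read), which gave back the reads. Peak positions and the deposited peak score were used as the authors gave them. Per the peak names, replicates were merged in the ATAC-seq lists and in 3 of the H3K4me1 lists, and pooling is not stated for the others. The labels list a single sample for each ATAC-seq group and each H3K4me1 group of the second experiment. What was merged in those lists is therefore not known.

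limma 3.58.1 in R 4.3.3 was fitted with a trend to log2(value + 1) of all 18 libraries, with 1 coefficient for each of 6 groups, 12 residual degrees of freedom and no block, over the 17254 genes that reached 10 in 2 or more libraries. Fold changes are on the log2(value + 1) scale, which understates the change of low genes. Adjusted p is Benjamini-Hochberg over all 17254 genes, with a threshold of 0.05, errors of log2 differences are SE, and 7 comparisons and 2 interactions were made. The fit was tested on simulated data. edgeR 4.0.16 and DESeq2 1.42.0 on the recovered reads, TMM rescaling, a pseudocount of 5, no filter, a minimum of 50, fits to only the groups compared, a replicate block and leaving out each library were alternatives. The members, lists and tests were chosen with earlier results of these data known. Named genes are 36 fixed by name and the 5 members with the largest called difference each way in each comparison. Members ranked by difference had a mean of at least 50 over the libraries compared. The rule named 51 members, and other members are named in the text to account for a group.

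Of the cell type lists, called genes (higher and lower) in Th2 cells labelled Setdb1 KO against Th2 WT cells were 2 and 5 of 11 T cell, 1 and 1 of 2 CD8 T cell, 0 and 0 of 8 B cell, 1 and 0 of 6 myeloid and 1 and 0 of 3 erythroid and platelet markers tested.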

Additional observations from a re-analysis of the deposited data

Results flagged for a closer look

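Among the 49 members examined in naive WT cells, Eif4a3 had a value far from its group: 1352 normalised reads in naive WT 2, against 1695 to 1762 in the other 3 naive WT libraries. About 1 in 20 groups would be marked by chance under this rule, and the gene was not called between naive genotypes.

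The change with Th2 culture differed between genotypes beyond the test's threshold, as an interaction in limma. Among the named members with a higher change in cells labelled Setdb1 KO, the log2 interactions were 1.48 for Eif4g1, 1.15 for Eif4g3, 0.86 for Eif2ak2, 0.75 for Eif5a2 and 0.63 for Eif4g2. Among those with a lower change they were -2.42 for Eif4ebp1, -1.89 for Eif3m, -1.80 for Eif1b, -1.68 for Eif3h and -1.63 for Eef2k. The largest adjusted p among the 10, that of Eif2ak2, was 0.038 in limma. The call for Eif2ak2 was lost in 10 alternatives, with log2 interactions of 0.57 to 0.87 and limma adjusted p of 0.053 to 0.13. That for Eif5a2 was lost in 3, and was 0.47 (limma adjusted p = 0.14) without the 3 naive libraries with the most genes detected.

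The change on the move to Th1 medium differed as well. It was higher in cells labelled Setdb1 KO by 3.19 on the log2 scale for Eif4ebp1, 2.00 for Eif3f, 1.90 for Eif3m, 1.88 for Eif3i and 1.56 for Eif2a. The log2 interactions of those with a lower change were -1.65 for Eif1ad, -1.54 for Eif4g1, -1.50 for Eif2ak2, -1.39 for Eif5b and -1.24 for Eif4g3. Both interactions contain the same Th2 libraries, so a gene that appears in both with opposite signs is not counted as 2 results.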

How the results depend on the processing

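Of the calls on named genes, those that passed in every alternative were 1 of 9 between naive genotypes, 34 of 37 between Th2 genotypes, 14 of 22 between Th2-Th1 genotypes, 36 of 38 for Th2 culture of WT cells, 26 of 31 for Th2 culture of cells labelled Setdb1 KO, 27 of 35 for the move to Th1 medium of WT cells and 9 of 19 for that of cells labelled Setdb1 KO, 28 of 32 for the Th2 interaction and 23 of 28 for the Th1 medium interaction. No named call changed sign in any alternative run, and where one was lost the cause was not tested. In naive cells the factor genes higher numbered 2 with the replicate block and 2 without the 3 libraries with most genes detected, and those lower numbered 1 without these 3. All genes called there numbered 1775 with the replicate block, 1028 when only the groups compared were fitted and 965 without these 3. With no filter on low values, 1 factor gene was lower on the move of cells labelled Setdb1 KO to Th1 medium. Leaving out 1 library gave ranges of 1 to 8 factor genes higher, 2 to 5 lower and 1077 to 2497 of all genes called in naive cells, with the low ends without naive Setdb1 KO 2 and 2497 without naive Setdb1 KO 3. In Th2-Th1 cells it gave 5 to 9 factor genes higher, with 5 without Th2-Th1 WT 1, and 3836 to 5169 of all genes called, with 3836 without Th2-Th1 WT 2. A lone WT library was then assumed to vary like the other groups. For Th2 culture of cells labelled Setdb1 KO it gave 8 to 13 factor genes lower, with 8 without naive Setdb1 KO 1. For their move to Th1 medium it gave 12 to 22 higher, with 12 without Th2-Th1 Setdb1 KO 2, and 1 to 2 lower, with 1 on leaving out Th2 Setdb1 KO 1, Th2 Setdb1 KO 3, Th2-Th1 Setdb1 KO 1 or Th2-Th1 Setdb1 KO 3. Deviations of same-numbered libraries from their group means had a Pearson r of -0.41 to 0.13 (40 pairs, median 0.01). Differently numbered pairs had -0.41 to 0.47 (94 pairs, median -0.003). In groups this small the deviations within a group are tied to each other. Whether replicate numbers pair the samples can therefore not be told from these values. A narrower window of 250 bases before to 50 after the start was also used. H3K27ac then lay at 40 starts in Th2 cells labelled Setdb1 KO (80%, against 64.2% of tested genes). In Th2 WT cells it lay at 43 (86%, against 70.9%). H3K4me1 of the second experiment lay at 6 in Th2 cells labelled Setdb1 KO (12%, against 26.9%) and 8 in Th2 WT cells (16%, against 24.2%). The other H3K4me1 lists gave 10 in Th2 WT cells (20%, against 39%) and 29 in naive WT cells (58%, against 59.5%). H3K9me3 lay at 1 start in Th2 cells lacking Suv39h1 (2%, against 4.85%). With only the peaks that reached the median score of each list, H3K4me1 lay at 32 starts in Th2 cells labelled Setdb1 KO (64%, against 60.9%). It lay at 30 in each Th2 WT list (60%, against 52.6% in the second experiment and 47.9% in the other). In naive WT cells it lay at 26 (52%, against 48.6%). Depth limits low genes most, and the 4 untested genes cannot be judged.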
